A study of Homo sapiens with 12 samples.

Results

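The baseline described here is the messenger RNA profile of LNCaP cells that received a scramble microRNA. LNCaP is an established human prostate cancer line with features of luminal secretory epithelium, and a scramble microRNA is a control sequence used in place of a natural microRNA. Only the 3 arrays labelled scramble, of 12 in the series, define the profile. The other 9 are LNCaP cells transfected with miR-130a, miR-203 or miR-205, with 3 arrays each. All 12 come from 1 cell line and total RNA, and the labels call the arrays of a group biological replicates without saying whether they were separate cultures. Neither dose nor time after transfection is stated in the labels, and no untransfected array is used, so the scramble arrays stand for transfected control cells. A gene was represented by the probe set with the highest mean over the 3 scramble arrays, among probe sets with exactly 1 gene symbol. This gave 11963 genes from 22277 probe sets.

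Luminal cells of the prostate secrete proteins into the duct, among them the kallikrein proteases, and depend on androgen signalling for much of that programme. They rest on basal cells and lie beside stroma, vessels and rare neuroendocrine cells, each with marker genes of its own. A cell line grows without those neighbours, so their markers serve as a check on the label. Because the arrays measured bulk RNA, fewer cells with a transcript and less of it per cell cannot be told apart.

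The label matched its 3 marker genes. KLK3, which encodes prostate-specific antigen, had log2 signals of 11.36, 11.48 and 11.50 on scramble arrays 1, 2 and 3. The androgen-regulated protease gene KLK2 had 8.73, 8.89 and 8.84. The membrane serine protease gene TMPRSS2 had 7.92, 8.28 and 8.30. Each lay far above the array medians of 2.76 to 2.77, and the lowest value the arrays hold is 2.36. Scramble 1 gave the lowest signal for all 3 genes, and the gap to the other arrays was widest for TMPRSS2.

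KLK3 and KLK2 lie side by side on chromosome 19, and the 250 bases before each annotated start are shown because they carry the same stretch of promoter. Sequences are from RefSeq, build GRCh38.p14, plus strand, 5′ to 3′, at chr19:50854665-50854914 for KLK3 and chr19:50873189-50873438 for KLK2. Capitals mark the 14 letters GAACAGCAAGTGCT and, nearer the start, the 6 letters TTTATA, which read TATAAA on the opposite strand.
KLK3: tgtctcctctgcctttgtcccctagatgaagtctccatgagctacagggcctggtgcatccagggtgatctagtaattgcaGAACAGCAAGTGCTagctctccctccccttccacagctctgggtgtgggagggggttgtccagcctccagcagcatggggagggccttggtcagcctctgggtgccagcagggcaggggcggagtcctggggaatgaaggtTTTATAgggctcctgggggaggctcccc
KLK2: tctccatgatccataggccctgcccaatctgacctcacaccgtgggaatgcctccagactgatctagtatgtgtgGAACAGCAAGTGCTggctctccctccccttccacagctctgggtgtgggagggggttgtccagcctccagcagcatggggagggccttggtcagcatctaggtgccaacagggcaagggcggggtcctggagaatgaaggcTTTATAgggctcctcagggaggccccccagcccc
The longer string begins 169 bases before the KLK3 start and 175 bases before the KLK2 start. This string was taken from these 2 windows, as the shared run just before their longest identical stretch, so its presence in both was fixed. It was found in 2 of 9563 promoter windows (0.0209%), those of KLK3 and KLK2. The windows run from 250 bases before to 50 after the start and were searched on either strand. The shorter one begins 28 and 34 bases before the KLK3 and KLK2 starts, and 63 windows (0.659%) hold it between 40 and 16 bases before the start. The longest run of letters identical in both windows is 80 bases. A match of letters is a description of the sequence only.

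Signals fell into a wide bright class and a narrow class at the bottom of the scale. The median of each array's own values was the limit. Over it stood 6581 genes (55.0%) on all 3 scramble arrays, called bright here, 244 (2.04%) on 1 or 2, and 5138 (42.9%) on 0. Because the limit is a median over all probe sets, these shares are largely set by the rule. Each count of bright list members below is to be read beside the 55.0% of all genes. The limit of 2.76 to 2.77 also lies close to the lowest value of 2.36, so bright does not by itself mean expressed. The 5138 are called dim, which gives only an upper limit to their signal. Among the dim genes, 3345 (28.0% of all genes) sat within 0.01 log2 of the lowest value on all 3 arrays, called the floor here. The bright genes had a median level of 5.49, with 10% under 3.39 and 10% over 8.50. At a level of 10 or more stood 220 genes, and at 12 or more 42.

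**Figure D1:**
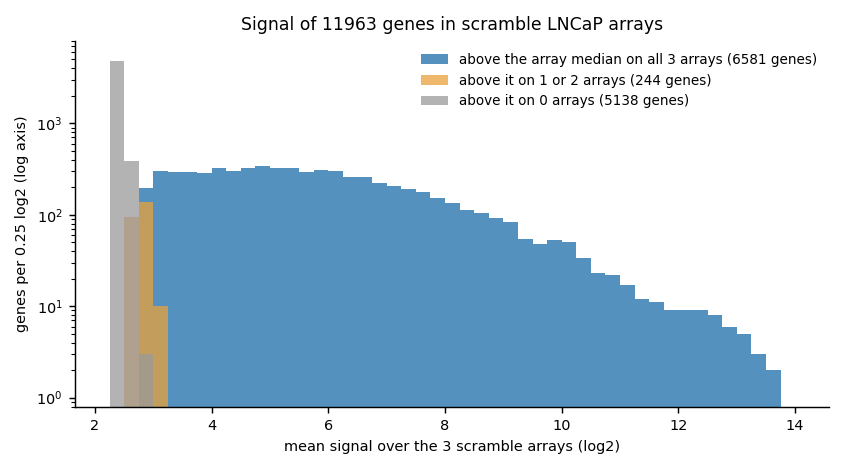
Number of genes (log axis) by mean signal over the 3 scramble arrays (log2, bins of 0.25), coloured by whether the gene lay above the array median on all 3, on 1 or 2, or on 0 arrays. The 5138 dim genes stack at the lowest signals and the 6581 bright genes spread up to a level of 13.71.

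The 3 arrays agreed closely. Over all genes their pairwise correlation was between 0.997 and 0.998, across genes, which are not independent replicates. Among the bright genes the SD over the arrays had a median of 0.110 and a 90th percentile of 0.237. Exactly equal values on 2 or 3 arrays occurred in 491 bright genes (7.46%), so their SD understates the error. Levels given are means ± SD of log2 signals over the 3 scramble arrays unless said otherwise. Probe sets differ in how strongly they bind, so the order of signals is not an order of transcript abundance. Where a bright gene had several probe sets, the highest and the lowest differed by a median of 1.62 log2, and in 1563 of 2896 such genes every probe set was bright.

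Genes of protein synthesis filled the top of the scale. RPL41, encoding a small protein of the large ribosomal subunit, had the highest signal at 13.76, 13.64 and 13.74. EEF1A1, the elongation factor that brings transfer RNA to the ribosome, followed at 13.57, 13.62 and 13.65. RPS18, of the small subunit, had 13.43, 13.43 and 13.51. Their arrays differed by no more than 0.122 log2. Ribosomal protein genes made up 21 of the 25 brightest genes, 36 of the 50 and 49 of the 100, while they were 57 of all 11963 (0.476%).

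Of a list of 52 measured cytosolic ribosomal protein genes, 51 were bright and the median level was 12.21, against 3.34 over all genes. RPL27A at 3.90 ± 0.22 and RPLP2 at 2.51 ± 0.13, which was dim, stood apart from the remaining 50, whose levels ran between 10.33 and 13.71. All 28 measured translation factors were bright, from EIF2S3 at 5.88 ± 0.15 to EEF1A1. EEF1A2, the isoform known mainly from muscle and neurons, stood at 11.23 ± 0.09. Probe sets of families with many near-identical copies can bind several of them: 44 of the 50 brightest genes (88.0%) were read by a probe set named as shared between transcripts, against 4926 of all genes (41.2%). Which copy gave these signals is therefore uncertain.

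Ribosomal and elongation factor genes are known to start at a C within a run of pyrimidines, the 5′ terminal oligopyrimidine motif through which growth signals act on their translation. The 30 bases around the annotated start are shown for 4 of the brightest such genes, with GAPDH, a bright glycolytic gene, for contrast. Each runs from 15 bases before the start, 5′ to 3′ on the gene's own strand, and capitals mark a run of at least 6 C or T that covers the first transcribed base (base 16).
RPL41: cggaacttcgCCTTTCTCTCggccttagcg
EEF1A1: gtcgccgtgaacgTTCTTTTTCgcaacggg
RPS18: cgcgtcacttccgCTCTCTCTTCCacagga
RPS24: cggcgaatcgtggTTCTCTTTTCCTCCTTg
GAPDH: agcgggtgcatccctgtccggatgctgcgc
They are from RefSeq, build GRCh38.p14, at chr12:56116618-56116647 (RPL41), chr6:73521018-73521047 on the minus strand (EEF1A1), chr6:33272060-33272089 (RPS18), chr10:78033848-78033877 (RPS24) and chr12:6535249-6535278 (GAPDH). Such a run covered the start in 34 of 46 ribosomal protein genes with a window (73.9%) and in 10 of 20 translation factors. Among the 1387 brightest genes with a window it was 11.8%, and over all 9563 windows 656 genes had it (6.86%). GAPDH had none, and neither did RPS28, a bright ribosomal gene at 13.08 ± 0.03.

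Promoter composition differed with signal class as well, given here without a test. The ratio of observed to expected CpG, a C followed by a G, where vertebrate DNA is methylated, was 0.6 or more in 90.7% of those 1387 genes. It was so in 83.7% of the 1387 bright genes of lowest level, 48.6% of dim genes and 43.0% of genes at the floor. TATAAA between 40 and 16 bases before the start was in 2.67% of the 1387 brightest and 7.42% of genes at the floor, against 3.51% of all windows. In the remaining bright genes, split by falling level into 1386, 1386 and 1387, TATAAA was in 1.01%, 1.23% and 0.721%. Among bright genes it was thus most frequent in the brightest. A CpG ratio of at least 0.6 was found in 71.96% of all windows. It was less frequent in luminal genes, at 8 of 21 (38.1%), and 0 of 11 tissue kallikreins had it, bright or dim. A low share was not particular to these lists. It was 6.67% in leukocyte markers and 23.1% in cancer-testis genes, while other lists were high, such as ribosomal proteins at 97.8%.

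Outside the ribosome the top of the scale held genes most cells use. GAPDH had 12.54 ± 0.01, the translation-linked TPT1 12.74 ± 0.03, ubiquitin gene UBB 12.51 ± 0.14, cytoskeletal ACTB 12.45 ± 0.10 and the prolyl isomerase gene PPIA 12.39 ± 0.02. The mitochondrial chaperonin gene HSPD1 had 12.26 ± 0.12. Among the 70 brightest genes only KLK3, ranked 66, and STEAP1, ranked 67, came from the luminal list. STEAP1, a membrane protein of the cell surface used as a prostate cancer antigen, had 11.45, 11.37 and 11.43. GDF15, a secreted stress-responsive cytokine of the TGF-beta family, had 11.01, 11.21 and 11.31, while its second probe set lay at 2.36.

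Of 29 measured luminal genes 22 (75.9%) were bright, against 55.0% of all genes, and 7 were dim. The list's median level was 5.22, against 3.34 over all genes. Among keratin genes of simple epithelium, KRT18 had 10.20 ± 0.04 and KRT8 7.69 ± 0.11, while KRT19 was dim at 2.39 ± 0.00. Transcription factor genes of the lineage followed, with HOXB13, the prostate homeobox gene, at 7.47, 8.05 and 7.79. FOXA1, which opens chromatin for hormone receptors, had 7.57, 7.61 and 7.61. SPDEF, an epithelial ETS factor, had 6.92 ± 0.13 and GATA2 6.41 ± 0.08. Scramble 1 was lowest for HOXB13, by 0.58 log2 against scramble 2, whereas FOXA1 varied by 0.04.

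The secreted and surface products of the lineage spread over the whole scale. ABCC4, a transporter that exports cyclic nucleotides, had 9.07 ± 0.13, the adhesion gene EPCAM 8.60 ± 0.05 and prostatic acid phosphatase gene ACP3 7.27 ± 0.06. AZGP1, a secreted zinc-binding glycoprotein, had 6.22 ± 0.07 and RAB3B, a vesicle regulator, 4.70 to 5.35. FOLH1, encoding prostate-specific membrane antigen, had 4.13 ± 0.11 on the only probe set used for it. The 1043 probe sets with several symbols were left out, so a gene with close copies can have others that are not counted here. The calcium channel gene TRPV6 had 4.08 ± 0.03 and AMACR, a peroxisomal racemase used as a tumour stain, 2.95 ± 0.02, close to the median. The dim members were MSMB, KRT19, CRISP3, TARP, TRPM8, TGM4 and NPY, between 2.36 and 2.52.

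**Figure D2:**
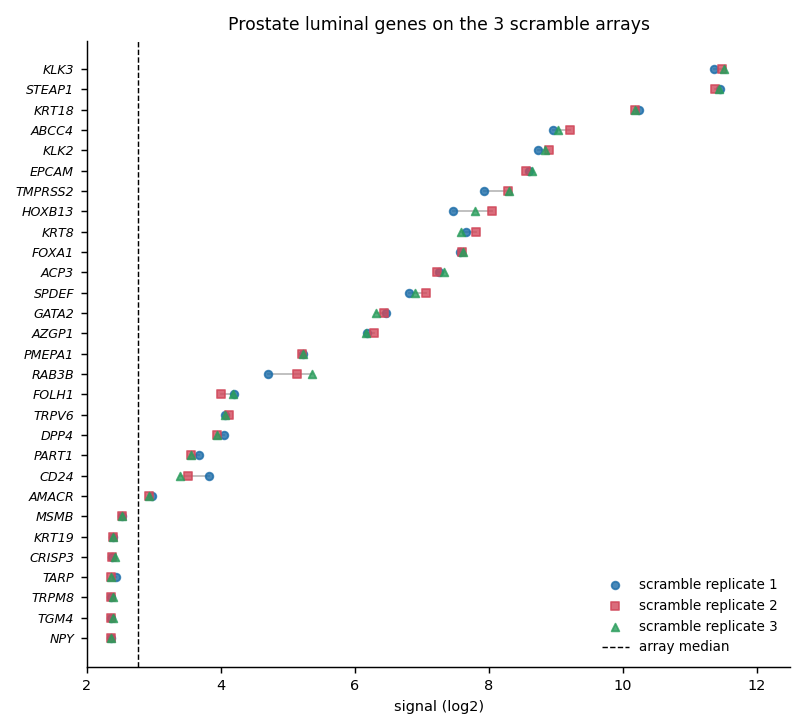
Signal (log2) of the 29 measured luminal genes on scramble arrays 1, 2 and 3 (circle, square, triangle), ordered by mean, with the array median as a dashed line. KLK3 and STEAP1 stand above 11, and 7 genes lie left of the line.

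Second probe sets of the marker genes agreed in part. KLK3's other probe set had 11.02 ± 0.09 and that of TMPRSS2 6.98 ± 0.19. KLK2 had 3 probe sets, at 8.82, 7.65 and 3.10. Apart from KLK3 and KLK2, each of the 11 other measured tissue kallikreins was dim, the highest being KLK15 at 2.48 ± 0.10. Apart from KRT18, KRT8 and KRT10 (7.62 ± 0.03), each of the 20 other measured keratins was dim, the basal KRT5, KRT14 and KRT15 at the floor among them.

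Markers of neighbouring cell types were mostly at the bottom of the scale. Of 15 basal markers 2 were bright, ITGA6, a laminin receptor subunit, at 3.84 ± 0.02 and the cytolinker gene DST at 3.21 ± 0.14. CD44 was dim on all 8 of its probe sets. All 21 leukocyte markers and all 14 endothelial markers were dim on all 3 arrays, the mean over either list being between 2.37 and 2.38 on each array. Of 20 fibroblast and smooth muscle markers 3 were bright, SMTN at 4.13 ± 0.10, ACTA2 at 3.63 ± 0.10 and COL1A1 at 3.03 ± 0.14, whereas DCN, LUM, MYH11 and PDGFRB were dim. Of 23 genes typical of other organs 2 were bright, MBP at 5.29 ± 0.23 and the surfactant gene SFTPB at 3.09 ± 0.00.

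One neuroendocrine marker stood high. DDC, which makes dopamine and serotonin and has been described as a partner of hormone receptors in prostate cells, had 8.73, 8.65 and 8.75, but 2.36 on its second probe set. ENO2 was bright but near the array median, and the other 15 of 17 measured markers, CHGA, CHGB and SYP among them, were dim. Epithelial junction genes were bright in 23 of 29 (79.3%), against 55.0% of all genes. The E-cadherin gene CDH1 had 10.07 ± 0.01 and the tight junction gene CLDN7 9.09 ± 0.01. Of 16 mesenchymal genes 4 were bright. FN1, the matrix protein fibronectin, had 8.23 ± 0.07, with 3 further probe sets between 7.74 and 8.19, 1 at 2.86 and 1 at the floor. VIM, the intermediate filament of mesenchymal cells, had 3.28 ± 0.17, and ZEB1, ZEB2 and CDH2 were at the floor.

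**Figure D3:**
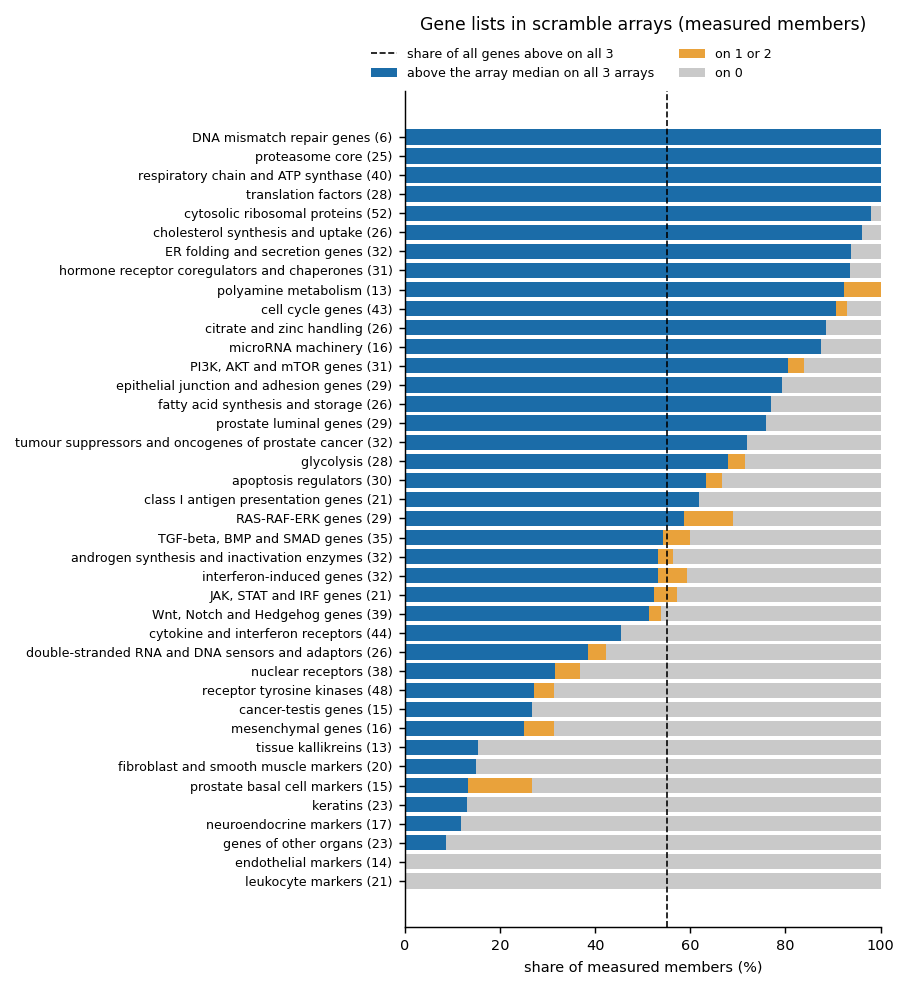
Share of the measured members of each of 40 gene lists (number in brackets) that lay above the array median on all 3, on 1 or 2, or on 0 scramble arrays, ordered by the first share. The dashed line is that share over all genes, 55.0%, and lists run from 100% (proteasome, respiratory chain, translation factors) to 0% (leukocyte and endothelial markers).

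Of the hormone and growth factor receptors a small subset was bright. Of 38 measured nuclear receptor genes 12 (31.6%) were bright. NR2F6, an orphan receptor, led with 7.01 ± 0.14, before RXRA, the shared partner of many receptors, at 6.78 ± 0.02 and ESRRA, a regulator of mitochondrial genes, at 5.86 ± 0.06. The vitamin D receptor gene VDR had 4.18 ± 0.24. The glucocorticoid receptor gene NR3C1 was at the floor on all 4 of its probe sets, and the oestrogen and progesterone receptor genes ESR1, ESR2 and PGR were dim. Of 31 measured coregulators and chaperones of hormone receptors 29 were bright, including HSP90AA1 at 11.31 ± 0.09, the p23 gene PTGES3 at 10.78 ± 0.11 and NCOA4 at 8.83 ± 0.10.

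Enzymes that make or clear androgens were bright in 17 of 32 (53.1%), near the 55.0% of all genes. Cytochrome b5 gene CYB5A had 9.76 ± 0.01 and HSD17B4, of peroxisomal oxidation, 9.15 ± 0.06. UGT2B15 and UGT2B17, which glucuronidate androgens, had 7.16 ± 0.15 and 6.26 ± 0.07. The reductase gene SRD5A1 had 5.84 ± 0.14 while SRD5A2 was at the floor, as were CYP17A1, HSD3B1 and HSD3B2 of androgen synthesis from cholesterol.

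Of 48 receptor tyrosine kinase genes 13 (27.1%) were bright and 24 were at the floor. ERBB3 had 7.30, 7.47 and 7.37, and ERBB2 had 6.62, 6.79 and 6.86. EGFR, of the same family, was close to the median at 3.67, 2.77 and 3.24, and its second-highest probe set had 3.17 ± 0.04. INSR and IGF1R, the insulin and insulin-like growth factor receptors, had 3.99 ± 0.07 and 3.92 ± 0.20, and MET, KIT, AXL and RET were at the floor. Of 44 cytokine and interferon receptor genes 20 (45.5%) were bright, with the interleukin-6 signal transducer IL6ST at 7.78 ± 0.21, the TRAIL receptor TNFRSF10B at 7.34 ± 0.07 and the chemokine-binding ACKR3 at 7.10 ± 0.09. For type I interferon, IFNAR2 had 4.56 ± 0.05 and IFNAR1 was dim at 2.38 ± 0.00.

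Of the signalling lists, that of PI3K, AKT and mTOR had 25 of 31 members bright (80.6%), with the GTPase gene RHEB at 8.70 ± 0.03, EIF4EBP1 at 8.10 ± 0.00 and AKT1 at 6.05 ± 0.17, and IRS1 dim at 2.50 ± 0.02. The next 3 lists lay near the 55.0% of all genes. The RAS-RAF-ERK list had 17 of 29 bright (58.6%), and the ERK feedback genes DUSP6, SPRY2 and SPRY4 were at the floor with ETV5. Of 35 TGF-beta, BMP and SMAD genes 19 (54.3%) were bright, SMAD2 at 6.11 ± 0.15 and SMAD4 at 5.75 ± 0.20 among them, whereas both receptor genes TGFBR1 and TGFBR2 were at the floor. In the Wnt, Notch and Hedgehog list 20 of 39 (51.3%) were bright, with CTNNB1 at 8.60 ± 0.18 and the Notch ligand JAG1 at 6.28 ± 0.05, and SHH, IHH and GLI1 were at the floor.

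Among 32 tumour suppressors and oncogenes of prostate cancer 23 (71.9%) were bright, against 55.0% of all genes. MYC had 8.17, 8.43 and 8.16, and the cell cycle inhibitor CDKN1A had 9.19, 8.73 and 9.14. ETV1, an ETS factor rearranged in some prostate cancers, had 7.66, 7.57 and 7.57 on 1 probe set, and its 4 others lay between 2.36 and 3.05. ERG was at the floor and BCL2 was dim at 2.53 ± 0.01. All 6 measured mismatch repair genes were bright, from the replication clamp PCNA at 9.40 ± 0.07 and MSH6 at 6.08 ± 0.04 to EXO1 at 3.55 ± 0.04.

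Cell cycle genes were bright in 39 of 43 (90.7%), against 55.0% of all genes. Thymidylate synthase TYMS had 9.41 ± 0.15, CDK1 8.94 ± 0.13 and TOP2A 6.92 ± 0.17. MKI67 had 4.09, 4.21 and 4.42. CDK6, CCND2 and CCNA1 were at the floor. Of 30 apoptosis regulators 19 were bright (63.3%), not far from the 55.0% of all genes. MCL1, which protects cells from apoptosis, had 7.92 ± 0.14, and CASP1, HRK and BOK were at the floor.

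Respiratory chain, proteasome and secretion genes were bright nearly throughout. All 40 respiratory chain and ATP synthase genes were bright, with a median level of 9.53, as were all 25 proteasome genes, at 8.47. The ER folding and secretion list had 30 of 32 bright, with the chaperone gene HSPA5 at 11.23 ± 0.00. The glycolysis list had 19 of 28 bright (67.9%), against 55.0% of all genes. Its lactate dehydrogenase genes LDHA and LDHB had 10.77 ± 0.15 and 10.55 ± 0.09, and SLC2A3 and HK3 were at the floor.

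Prostate epithelium is known for making citrate, holding zinc and secreting polyamines. Of 26 citrate and zinc genes 23 (88.5%) were bright, against 55.0% of all genes. MDH2 had 10.59 ± 0.08, the zinc importer SLC39A6 9.64 ± 0.12, citrate synthase CS 8.95 ± 0.05 and the metallothionein MT2A 8.94 ± 0.01. SLC39A2 and SLC30A3 were at the floor. Of 13 polyamine genes 12 were bright and 0 were dim on all arrays. OAZ1, the antizyme that degrades ornithine decarboxylase, had 11.95 ± 0.05, AMD1 10.29 ± 0.03 and ODC1, the decarboxylase itself, 10.27, 10.16 and 10.15. MTAP, which salvages the by-product of polyamine synthesis, was above the median on 2 arrays at 3.07 ± 0.38.

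Lipid synthesis genes were bright in 20 of 26 on the fatty acid list and 25 of 26 on the cholesterol list. ELOVL5, an elongase, had 10.91 ± 0.06 and the desaturase gene SCD 9.88 ± 0.03. FASN, fatty acid synthase, had 7.99, 8.76 and 8.27, an SD of 0.39 where the 90th percentile of bright genes is 0.237. TM7SF2 and SC5D, late enzymes of cholesterol synthesis, had 9.39 ± 0.10 and 8.77 ± 0.05, and the sterol exporter ABCA1 was at the floor.

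Genes of innate defence were bright in part on the scramble arrays. Of 26 sensors and adaptors of foreign nucleic acid 10 were bright (38.5%), below the 55.0% of all genes. They included the RNA-editing enzyme ADAR at 8.47 ± 0.07, TBK1 at 6.60 ± 0.09, MAVS at 5.71 ± 0.05 and IFIH1 at 4.10 ± 0.11. RIGI was dim at 2.67 ± 0.03 and TLR3 and OAS2 were at the floor. In the JAK, STAT and IRF list 11 of 21 were bright (52.4%), near that share. STAT3 had 7.80 ± 0.13, and JAK1 was above the median on 1 array. The interferon-induced list had 17 of 32 bright (53.1%), near the 55.0% of all genes. ISG15 had 8.09, 8.30 and 8.46, IFITM3 7.76, 7.80 and 7.82, and MX1, MX2 and IFI44L were at the floor. Class I antigen presentation had 13 of 21 bright (61.9%), with B2M at 10.43 ± 0.10 and HLA-C at 8.82 ± 0.06. The immunoproteasome genes PSMB8 and PSMB9 and the class II genes HLA-DRA and CD74 were at the floor.

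Few genes varied between the scramble arrays. Of the bright genes, 7 (0.106%) had a range of 1 log2 or more: PLEC, TMEM259, RAB11B, SEC24D, LMAN1, SLC7A6 and SPC25. PLEC, a cytoskeletal linker, had 3.30, 4.26 and 4.63. LMAN1, a cargo receptor between the ER and the Golgi, had 5.01, 6.06 and 5.49. The most variable gene with a level over 8 was GRINA, a membrane protein, at 8.34, 9.30 and 9.07. Scramble 1 was the lowest in 8 of the 10 genes of widest range, in 16 of the 30 widest and in 25.6% of all bright genes. It was the highest in 9 of those 30 and in 2814 bright genes, more than scramble 2 (1939) or scramble 3 (1570). RNA that is partly degraded gives probe sets near the 3′ end more signal than those near the 5′ end. This gap was also widest on scramble 1: for ACTB it was 2.66, 2.35 and 2.30 log2 and for GAPDH 0.90, 0.56 and 0.57. Whether it plays a part in these differences was not tested.

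**Figure D4:**
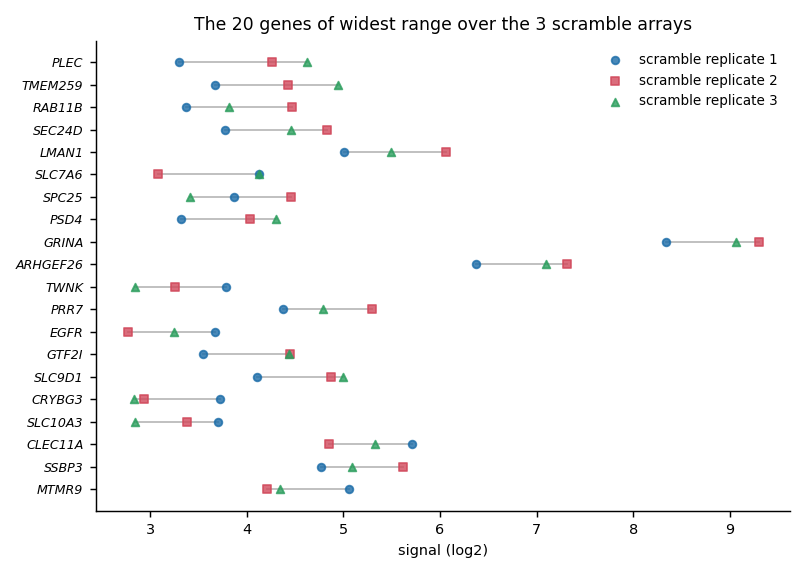
Signal (log2) on scramble arrays 1, 2 and 3 (circle, square, triangle) for the 20 bright genes with the widest range, widest at the top. Scramble 1 is the lowest point in 8 of the top 10 genes.

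Setting scramble against the rest of the series asked which genes of this profile differ from cells that received a natural microRNA. Which genes lay above the array median was largely shared. Of the bright genes 6345 (96.4%) were bright on all 12 arrays, and of the dim genes 4843 (94.3%) were dim on all 12. In 55 of the dim genes (1.07%) all 3 arrays of at least 1 microRNA group were above the median, 37 of them for miR-130a, 20 for miR-203 and 11 for miR-205. CXCL10 and CCL5, chemokine genes that draw T cells, were among the 37, dim in scramble at 2.52 ± 0.14 and 2.39 ± 0.03. In the opposite direction ALDH5A1, LARP6, MYO15B, NIBAN1 and UPK3A were bright in scramble and dim on all 9 other arrays. NIBAN1 had 4.33 in scramble. The others lay close to the limit there, with MYO15B at 2.81, UPK3A at 2.84, ALDH5A1 at 2.93 and LARP6 at 3.17.

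Levels were compared with limma on 6818 genes that were above the median on at least 3 arrays. The difference is scramble minus the mean of the 3 microRNA groups, ± SE, with Benjamini-Hochberg adjusted p over all genes tested. At 0.05, 1730 genes (25.4%) differed, 965 higher in scramble (14.2%) and 765 lower (11.2%), and 16 and 31 of these by 2-fold or more. In 524 genes (7.69%) the 3 scramble and the 9 other arrays did not overlap. Leaving out scramble replicate 3 lowered the 765 to 477. Of the genes tested, 73 were above the median on 0 scramble arrays and 5 on 0 of the other arrays. These met the filter only through the side where they are high, so their direction was fixed and they are described without a test. All counts over the 6818 genes, those of 2-fold differences and of no overlap among them, still include them. Lists are therefore counted over the 6345 genes bright on all 12 arrays, of which 929 were higher in scramble (14.6%) and 713 lower (11.2%), with a median difference of 0.01. The scramble mean was above that of miR-130a in 3331 of them, of miR-203 in 3137 and of miR-205 in 3232.

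Of 29 measured luminal genes 23 were tested and 21 were bright on all 12 arrays. Of the 21, 2 were higher in scramble, 1 was lower and 18 did not pass, where 14.6% and 11.2% of all such genes were higher and lower, and the median difference was 0.12. KLK3, given above per array for scramble, ran between 10.14 and 12.06 over the other 9, with a median of 11.17. Its level was thus inside their range, and the limma difference was 0.32 ± 0.06 (adjusted p = 0.00293), with group means of 11.17 for miR-130a, 10.21 for miR-203 and 12.01 for miR-205. TMPRSS2 differed by 0.53 ± 0.09 (adjusted p = 0.00119), with 6.66 to 8.12 and a median of 7.88 on the other arrays, and overlapped with them. Its group means were 8.11 for miR-130a, 6.87 for miR-203 and 7.94 for miR-205. KLK2 did not pass, at 0.25 ± 0.09 (adjusted p = 0.055). Its scramble mean of 8.82 was above the 7.22 of miR-203 but below the 8.98 of miR-130a and the 9.50 of miR-205. Nor did FOLH1 pass, at -0.15 ± 0.08 (adjusted p = 0.203). The lower one was RAB3B, at -0.62 ± 0.12. MSMB, the gene of a microseminoprotein, stood at 2.52 ± 0.00 in scramble, which is dim, and above the median only in miR-130a, at 4.17, so it met the filter through that group alone and its direction was fixed.

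The 8 largest differences upward without overlap were in NIBAN1, PCK2, CHAC1, ASNS, DDIT3, TRIB3, GARS1 and CDK2AP2. NIBAN1 met the filter through scramble alone, since the 9 other arrays were dim, and it was at least 2.94-fold higher in scramble, a description without a test. The adjusted p of the other 7 was 5.65e-06 or less. PCK2, mitochondrial PEP carboxykinase, had 8.49 to 8.58 on the 3 scramble arrays and 6.56 to 6.96 on the 9 others, a difference of 1.79 ± 0.07. ASNS, asparagine synthetase, had 9.78 to 9.80 in scramble and 7.98 to 8.79 in the others, at 1.39 ± 0.08. CHAC1, which degrades glutathione, differed by 1.52 ± 0.12, the stress transcription factor gene DDIT3 by 1.29 ± 0.11 and the pseudokinase gene TRIB3 by 1.26 ± 0.09. GARS1, glycyl-tRNA synthetase, differed by 1.24 ± 0.08 and CDK2AP2 by 1.16 ± 0.08. These 7 genes were bright on all 12 arrays. ATF4, a transcription factor of the amino acid and ER stress responses, had 10.05 ± 0.10 in scramble and differed by 1.03 ± 0.06 (adjusted p = 6.87e-08). In the ER folding and secretion list all 30 tested genes were bright on all 12 arrays, and 15 were higher in scramble and 0 lower, beside 14.6% and 11.2% of all such genes. Of the same list, HSPA5 did not pass, at 0.11 ± 0.06 (adjusted p = 0.186).

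Of 43 measured cell cycle genes 40 were tested and 37 were bright on all 12 arrays. Of the 37, 26 were higher in scramble (70.3%) and 1 was lower, beside 14.6% and 11.2% of all such genes, with a median difference of 0.41. The groups did not share this direction: the scramble mean was above that of miR-203 in 34 of the 37, above that of miR-205 in 34 and above that of miR-130a in 5. CDC20, which triggers anaphase, differed by 0.84 ± 0.15, with means of 6.47 in scramble, 6.68 in miR-130a, 5.48 in miR-203 and 4.73 in miR-205. TPX2, a spindle factor, differed by 0.79 ± 0.13, with 6.22 in scramble, 6.71 in miR-130a, 4.98 in miR-203 and 4.61 in miR-205. MKI67 differed by 0.33 ± 0.09 (adjusted p = 0.014), but its scramble levels of 4.09 to 4.42 lay inside the 3.51 to 4.60 of the other arrays. Its means were 4.24 in scramble, 4.44 in miR-130a, 3.66 in miR-203 and 3.63 in miR-205. CDKN1A did not pass, at -0.23 ± 0.09 (adjusted p = 0.0899).

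Of 32 measured interferon-induced genes 28 were tested, and 9 of these were dim on all 3 scramble arrays, so they met the filter through microRNA arrays alone. Of the 16 bright on all 12 arrays, 16 were lower in scramble, beside 11.2% of all such genes, with a median difference of -1.07. The scramble mean was below those of miR-130a and miR-203 in all 16, and above that of miR-205 in 8. IFIT1 had 4.74 to 4.98 in scramble and 5.61 to 11.71 in the others, with a median of 9.71, a difference of -4.13 ± 0.07. OASL differed by -3.58 ± 0.10, with 4.07 to 4.28 in scramble and 4.31 to 10.59 in the others. Their lowest other arrays were miR-205 arrays, whose group means were 5.71 for IFIT1 and 4.49 for OASL. Of the other largest downward differences without overlap, IFI6 had -1.77 ± 0.08 and IFITM1 -1.97 ± 0.19, while ANKRD46 (-1.65 ± 0.09), PUDP (-1.31 ± 0.11), the histone gene H2BC21 (-1.22 ± 0.08) and the transcriptional cofactor gene CITED2 (-1.20 ± 0.05) are not on that list. The adjusted p of these 8 was 1.17e-05 or less. CXCL10 and CCL5, dim in scramble, met the filter through microRNA arrays alone and overlapped with miR-205 arrays.

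**Figure D5:**
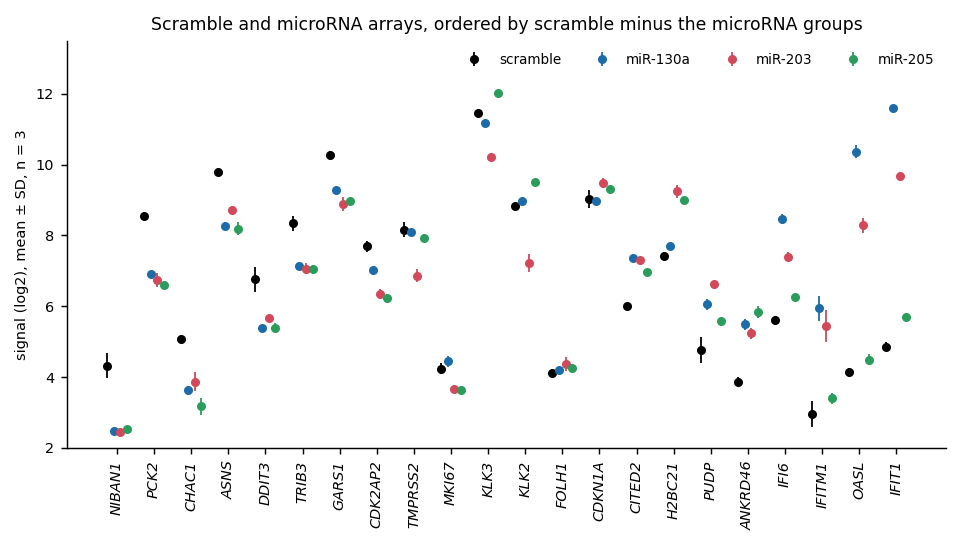
Mean signal (log2) ± SD of 3 arrays per group for 22 genes in scramble (black) and the miR-130a, miR-203 and miR-205 groups, ordered by scramble minus the mean of the microRNA groups. PCK2 and ASNS stand above all 3 microRNA groups in scramble, IFIT1 and OASL stand lowest in scramble, and KLK3 lies between the miR-205 and miR-130a groups.

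Among 51 ribosomal protein genes, bright on all 12 arrays, 0 were higher in scramble and 1, RPL27A at -0.29 ± 0.10, was lower. Of 23 citrate and zinc genes bright on all 12 arrays 8 were higher (34.8%) and 5 lower (21.7%), beside 14.6% and 11.2% of all such genes. The metallothioneins MT2A (0.66 ± 0.09) and MT1X (0.59 ± 0.09) were higher in scramble, and the zinc exporter SLC30A1 (-0.57 ± 0.10) was lower. On the cholesterol list 4 of 25 were higher and 5 lower, not far from those shares. MSMO1, an enzyme of late cholesterol synthesis, had -0.85 ± 0.06. CPT1A, which carries fatty acids into mitochondria, was higher in scramble at 0.95 ± 0.06 with no overlap. Of the androgen enzymes, UGT2B28 (-0.92 ± 0.09) and UGT2B15 (-0.61 ± 0.07) were lower in scramble and SRD5A1 (0.33 ± 0.07) was higher. The UGT2B28 means were 4.79 in scramble, 6.98 in miR-130a, 4.84 in miR-203 and 5.28 in miR-205, and those of UGT2B15 were 7.16, 8.11, 8.05 and 7.14 in the same order. ERBB2 was higher at 0.27 ± 0.08 and EGFR lower at -0.49 ± 0.16, and ERBB3 did not pass, at -0.04 ± 0.07. The EGFR means, all low on the scale, were 3.23 in scramble, 3.84 in miR-130a, 3.30 in miR-203 and 4.02 in miR-205. For EGFR the scramble and miR-203 means were thus close, with an SD of 0.45 in scramble.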

How the data were processed

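Total RNA of LNCaP cells was measured on 12 expression arrays, 3 each for scramble, miR-130a, miR-203 and miR-205, grouped by the labels. The deposited table holds log2 values, and all 12 columns were mapped by label with 0 other per-sample columns. R 2.9.0, RMA and limma are named, with no role, per the submitters' processing notes; the background method is not given in the sources used here. Gene names came from the platform annotation: 19070 had 1 symbol, 1043 several and 2164 none, and 19058 were found in the reference gene table (GRCh38.p14). Between 30.6% and 31.3% of the probe sets of a scramble array sat exactly at the lowest value, 2.36.

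The array median was the limit for a bright gene and 0.01 log2 the tolerance for the floor. In the comparison, a group-means model over 12 arrays was fitted with limma 3.58.1 in R 4.3.3 (eBayes, 8 residual and 4.83 prior degrees of freedom, two-sided, threshold 0.05). A gene dim on every array of a side has only a bound, at least N-fold, taken against the higher of each dim array's median and the gene's own value. The 3 arrays per group limit the precision, and p-values measure the spread between arrays, which may be technical. The test was checked on simulated data.

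The 40 gene lists, with 1208 genes of which 1036 were measured, and all members were chosen with earlier results of these data known; lists get counts and medians and no test, in the comparison over members above the median on all 12 arrays, a restriction chosen after the data were seen. The other list genes were not analysed here. Genes named are the 25 brightest, the luminal, kallikrein and mismatch repair lists, up to 8 bright and 8 dim members of each other list, the 10 of widest range, 8 fixed genes for the comparison of which 6 were measured, and its 8 largest differences without overlap in each direction; further genes, such as GDF15, STEAP1, CPT1A, CXCL10 and MAGEA6, were named after their values were seen. Alternatives were other limits, tolerances and probe set rules, no filter, quantile normalization, array weights, a replicate block and leaving out each array. Promoter windows (250 bases before to 50 after the start) existed for 9563 genes. Same-numbered arrays of different groups correlated between -0.11 and 0.04 in their deviations from the group means, so the numbers were not used as pairs.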

Additional observations from a re-analysis of the deposited data

How the results depend on the processing

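The counts kept their size within 1.5 times in 57 of 59 settings. The exceptions were the bright genes, 4058 where a gene had to lie 2 log2 above the array median, and genes lower in scramble, 477 without scramble replicate 3. Leaving out 1 array at a time gave 679 to 1040 genes higher and 477 to 801 lower in scramble. It gave 6612 to 6621 bright genes, 5177 to 5195 dim genes and 3507 to 3602 at the floor. The bright and dim counts are held near these sizes by the use of the median. Exact equality with the lowest value left 2634 at the floor and a tolerance of 0.1 log2 gave 4392. With the replicate number as a block, 946 genes were higher and 764 lower in scramble, and 1 of 9 same-numbered pairs correlated best with its own number. Quantile normalization gave 910 higher and 857 lower. Averaging a gene's probe sets in place of taking the brightest moved the level of 80 of 232 named genes by more than 1 SD. Of 410 single-gene differences under the alternatives none was reversed. MKI67 no longer passed without the filter (adjusted p = 0.0542) or without scramble replicate 3 (0.0989). KLK2 passed with the replicate block (0.0275), without genes of equal values (0.0474) and without miR-203 replicate 1 (0.0333) or 2 (0.0229), and CDKN1A without scramble replicate 1 (0.0493). The cause of these changes was not tested. No level under the array median can be read as more than dim.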

Other observations

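Genes of the microRNA pathway were mostly bright in the scramble cells, 14 of 16 measured (87.5%), against 55.0% of all genes. DICER1, which cuts the precursor to the mature form, had 8.04 ± 0.22 and DROSHA, which cuts the primary transcript in the nucleus, 6.19 ± 0.20 (SD, n = 3). The Argonaute genes AGO1 and AGO3, whose proteins hold the small RNA, had 4.46 ± 0.22 and 3.93 ± 0.32, and AGO4 was dim at 2.43 ± 0.04. LIN28A, an inhibitor of let-7 maturation, was at the floor.

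Of 15 measured cancer-testis genes, which are normally restricted to germ cells, 4 listed ones were bright in scramble: MAGEA12 at 7.96 ± 0.09, PRAME at 5.34 ± 0.20, MAGEA1 at 3.72 ± 0.11 and MAGEA10 at 3.37 ± 0.16. The MAGEA genes are near-identical copies, and the probe set that read MAGEA12 can bind several of them. MAGEA6, which is not on the list, had 10.17 ± 0.07 on a probe set of the same kind. Both PRAME, at -0.49 ± 0.09 (adjusted p = 0.00208 by limma), and MAGEA12, at -0.22 ± 0.06 (adjusted p = 0.0229), were lower in scramble than in the microRNA groups.

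Some bright genes rested on 1 of their probe sets. PTPRO, a receptor tyrosine phosphatase, had 10.04, 10.86 and 10.55 on one and 2.36 on the other. DHRS7, a short-chain dehydrogenase, had 11.10 ± 0.14 on one and 2.36 on the other.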
